A study of Mus musculus with 6 samples.

Results

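Chromatin accessibility in mouse bone marrow-derived macrophages (BMDMs) given latrunculin A with IL-4 was set directly against that in BMDMs given MCSF (CSF1) with IL-4. The 33476 sites described here were those on autosomes with a mean signal of at least 3.2 over the 6 libraries of the study, out of 578591 sites in the table of the series. A further 1973 sites on X and Y passed the same level and were left out. The level of a site over all 6 libraries chose it, and the ratio between the treatments did not.

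Every library came from wild-type mice of strain C57BL/6 (C57BL/6J in the growth protocol), from marrow cells differentiated in medium that held L929-conditioned medium and lifted from dishes not treated for tissue culture. The LatA + IL-4 library had latrunculin A at 1 μM and IL-4 at 20 ng/ml for 24 hours, and the MCSF + IL-4 library had MCSF at 100 ng/ml with the same IL-4. The other 4 libraries were Untreated, DMSO, IL-4 and DMSO + IL-4, the last pair with IL-4 at the same dose and time. The labels give a time for IL-4 and none for latrunculin A or MCSF, and the methods give a range of stimulation times for plate culture in general. The sample titles carry the word Petri, whereas the published description of these libraries names tissue-culture plates, so the surface during the treatment could not be settled. How many mice gave each culture is not given in the sources used here. Each group had 1 library, so no value below has a replicate error or a p-value.

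ATAC-seq reads out open chromatin, because a transposase inserts sequencing adapters where DNA is not wrapped on nucleosomes or otherwise covered. IL-4 acts through its receptor and the transcription factor STAT6 and turns macrophages towards a tissue-repair program. Latrunculin A binds monomeric actin and keeps it from polymerizing, so that cells lose their actin filaments and round up. MCSF signals through the receptor tyrosine kinase CSF1R, is the survival and growth factor of macrophages and makes them spread, and L929 cells secrete it into the medium in which such macrophages are grown. Latrunculin A is dissolved in DMSO and MCSF is not, so the direct comparison also holds the difference in vehicle. That difference was measured as DMSO + IL-4 against IL-4, which shares no library with the direct comparison.

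Reads in sites numbered 13479282 in MCSF + IL-4 and 14897964 in LatA + IL-4, within the range of 12387332 to 19889902 over the 6 libraries. The signal is the CPM of a site, scaled between libraries by the authors. A single read was worth 0.0759 in MCSF + IL-4 and 0.0683 in LatA + IL-4, so the level of 3.2 stands for 42.2 and 46.8 reads. Sites just inside the level, of mean signal 3.2 to 3.3, had shares of 15.1% higher and 12.4% lower in LatA + IL-4, and sites just outside it, of 3.1 to 3.2, had 14.9% and 11.1%. Intervals below are exact 95% intervals and cover counting error only, since reads are not independent molecules. The files are in the mm9 build and the annotation at hand is of another build, so sites are given by position and no gene is named.

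At most sites LatA + IL-4 and MCSF + IL-4 had similar accessibility. Of the 33476 sites, 26672 (79.7%) lay within 1.5-fold. In LatA + IL-4, 4249 sites (12.7%, interval 12.3 to 13.1) were at least 1.5-fold higher and 2555 (7.63%, 7.35 to 7.92) were at least 1.5-fold lower. Large ratios were few, with 106 sites at least 4-fold higher and 94 at least 4-fold lower. The log2 ratio had a median of 0.11 and an SD over sites of 0.53, with 5% of sites below −0.74 and 5% above 0.90.

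The vehicle comparison gave about the same median and fewer sites past the threshold. In DMSO + IL-4, 2045 sites (6.11%, 5.85 to 6.37) were higher than in IL-4 and 1100 (3.29%, 3.10 to 3.48) were lower, with a median log2 ratio of 0.12 and an SD over sites of 0.40. When the whole interval of the ratio had to lie past 1.5-fold, 1131 sites (3.38%) were higher and 782 (2.34%) lower in LatA + IL-4, against 304 (0.908%) and 277 (0.827%) for the vehicle. This count takes the larger ratios among sites of a given depth. An interval clears 1.5-fold more easily where a site has more reads, and the treated pair had more reads at the median site. Median signals were 7.31 (LatA + IL-4, 0.0683 per read) and 6.75 (MCSF + IL-4, 0.0759 per read). The vehicle pair had 4.97 (DMSO + IL-4, 0.0802 per read) and 4.64 (IL-4, 0.0636 per read). How far this depth made the gap between the interval counts was not tested. As 1 library stands for each group, all counts here compare libraries, and the part of culture or library preparation in them was not tested.

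**Figure D1:**
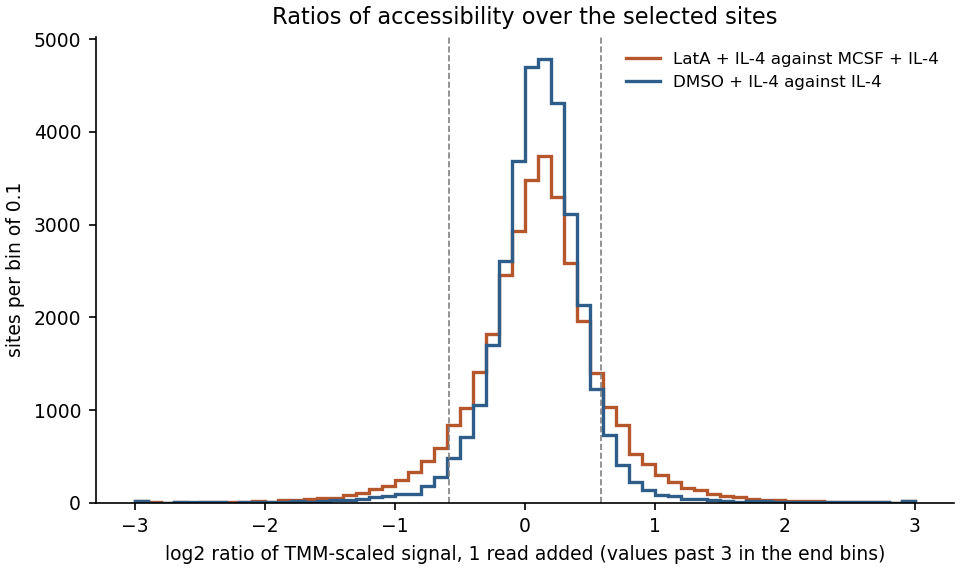
Number of sites (y axis) per bin of 0.1 in log2 ratio (x axis) over the 33476 sites, for LatA + IL-4 against MCSF + IL-4 and for the vehicle difference, DMSO + IL-4 against IL-4. Dashed lines mark 1.5-fold either way; both curves peak just above 0 (medians 0.11 and 0.12), and the curve for LatA against MCSF is wider (SD 0.53 against 0.40).

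Sites past 1.5-fold between the treatments were within 1.5-fold between the vehicles somewhat less often than sites in general, of which 90.6% were. Across the 33476 sites the log2 ratios of the direct and the vehicle comparison had a Pearson correlation of 0.03, as a description across sites with no library in common. Of the sites higher in LatA + IL-4, 9.25% were also higher with the vehicle, 5.84% were lower and 84.9% were within 1.5-fold there. Of the sites lower in LatA + IL-4, 8.38% were also lower with the vehicle, 11.1% were higher there and 80.5% were within 1.5-fold. Seen from the vehicle, 19.2% of the sites higher in DMSO + IL-4 were higher in LatA + IL-4 and 13.8% were lower, so both directions were more frequent among them than among all sites.

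Subtracting the vehicle log2 ratio from the direct one evened out the directions. After subtraction 4353 sites (13.0%) were higher and 4402 (13.1%) lower in LatA + IL-4, with a median of −0.02. Of the sites past 1.5-fold, 49.7% were then higher, compared with 62.4% before subtraction and 65.0% in the vehicle comparison itself. The subtraction brings in the counting error of 2 more libraries, and the SD over sites rose to 0.65. With the median ratio of all sites set to 0, a scaling chosen after the data were seen that itself balances the directions, 3087 were higher and 3502 lower (46.9% higher). In the vehicle comparison the same scaling gave 41.4% higher.

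At the sites that differed, the lower of the treated libraries was near the level of the controls. At the 4249 sites higher in LatA + IL-4 the median signal was 3.55 in Untreated, 4.43 in DMSO, 4.13 in IL-4, 4.41 in DMSO + IL-4, 4.17 in MCSF + IL-4 and 7.92 in LatA + IL-4. MCSF + IL-4 was near IL-4 there and below its median of 6.75 over all 33476 sites, while LatA + IL-4 was near its own overall median of 7.31. At the 2555 sites higher in MCSF + IL-4 the medians were 3.12, 3.56, 4.26, 4.41, 8.04 and 4.17 in the same order. There LatA + IL-4 was just below DMSO + IL-4 and below its overall median, and MCSF + IL-4 was above its own. At the sites within 1.5-fold both treated libraries were above the controls, with medians of 7.13 in MCSF + IL-4 and 7.51 in LatA + IL-4, where the controls had 4.77 in IL-4 and 5.13 in DMSO + IL-4. Since the classes were made from the ratio of the treated libraries, a gap between these is fixed by the choice. Levels against the controls also rest on the scaling, under which both treated libraries were above IL-4 and DMSO + IL-4 (4.64 and 4.97) over all sites.

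Counts of the highest library per site gave the same picture. LatA + IL-4 was the highest of the 6 libraries at 52.1% of all 33476 sites and MCSF + IL-4 at 28.3%. As the lowest library, LatA + IL-4 stood at 7.47% of all sites, MCSF + IL-4 at 6.37% and Untreated at 48.6%. Among the sites higher in LatA + IL-4, that library was the highest of all 6 at 3756 sites (88.4%), and MCSF + IL-4 was the lowest of all 6 at 827 (19.5%). Among the sites higher in MCSF + IL-4, that library was the highest at 1936 (75.8%) and LatA + IL-4 the lowest at 691 (27.0%). The choice of sites by their ratio fixes part of these shares, and they are given as a description.

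The authors' peak lists, called on each library, gave a further view of the same pair. On autosomes 208862 peaks were called in LatA + IL-4, and 59.4% of them overlapped an MCSF + IL-4 peak by at least 1 bp. Of 214743 MCSF + IL-4 peaks, 58.4% overlapped a LatA + IL-4 peak. The vehicle pair shared 57.5% of DMSO + IL-4 peaks and 55.7% of IL-4 peaks. With peaks of a −log10 q of at least 5, the treated pair shared 60.8% of LatA + IL-4 peaks and 64.2% of MCSF + IL-4 peaks, and the vehicle pair 60.8% of DMSO + IL-4 peaks and 54.5% of IL-4 peaks. With an overlap of at least 50%, the shares were 49.3% and 47.9% in the treated pair and 44.2% and 43.2% in the vehicle pair, in the same order. Among the 33476 sites, 96.5% had a peak in both treated libraries. Of the rest, 275 of the sites higher in MCSF + IL-4 (10.8%) had a peak in MCSF + IL-4 and none in LatA + IL-4, and 128 of the sites higher in LatA + IL-4 (3.01%) had one in LatA + IL-4 alone. The level that chose the sites lies well above that needed for a peak, so a peak in both libraries was largely fixed by the choice.

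Weakly accessible sites differed more often, both between the treatments and between the vehicles. At a mean signal of 3.2 to 4.5, 15.9% of sites were higher and 10.6% lower in LatA + IL-4. At 6.4 to 12.8 the shares were 9.26% and 4.76%, and at 12.8 to 25 they were 6.22% and 3.96%. The vehicle shares fell more steeply, from 8.72% and 5.31% at 3.2 to 4.5, through 3.84% and 1.73% at 6.4 to 12.8, to 1.83% and 1.13% at 12.8 to 25. The trend between the treatments did not run through to the top, since 8.73% were higher and 5.88% lower among the 527 sites of 25 to 50, where the vehicle had 1.71% and 0.759%. Sites of 50 or more numbered 354, and 1.69% of these were higher and 1.13% lower. Counting error is larger at weak sites, and its part in the trend was not tested.

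Wide sites went against the general excess of higher sites, and at 1500 to 2500 bp those of the vehicle comparison did as well. Among 2012 sites of 1500 to 2500 bp, 13.2% were lower and 8.35% higher in LatA + IL-4, and among 162 wider ones 13.6% were lower and 9.88% higher. Among sites of 500 to 1000 bp the order was the usual one, with 6.91% lower and 13.7% higher. The vehicle shares were 8.35% lower and 6.31% higher at 1500 to 2500 bp, against 2.37% and 5.88% at 500 to 1000 bp. At the 162 wider sites the vehicle had 9.88% lower and 10.5% higher, the usual order. The median width was 687 bp at sites higher in LatA + IL-4, 743 bp at sites higher in MCSF + IL-4 and 757 bp at the rest.

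Sites opened by IL-4 were more often lower with latrunculin A than with MCSF. For each site the response to IL-4 was taken from the 4 libraries that had neither latrunculin A nor MCSF, as IL-4 against Untreated and DMSO + IL-4 against DMSO. These libraries are outside the direct comparison, and the classes were added after the data were seen. IL-4 raised 3572 sites at least 1.5-fold in both pairs (10.7%) and lowered 794 (2.37%). Of the raised sites, 22.0% (20.7 to 23.4) were lower in LatA + IL-4 than in MCSF + IL-4 and 14.2% (13.1 to 15.4) were higher, against 7.63% and 12.7% of all sites. Of the lowered sites, 5.92% were lower and 21.3% were higher, the opposite order to raised sites and the same order as all sites. The vehicle shares at lowered sites also stood above those of all sites, at 12.1% higher and 5.29% lower against 6.11% and 3.29%. The classes rest on the choice of pairs: at sites raised in IL-4 against Untreated, whatever the DMSO pair did, 16.0% were lower and 16.0% higher, and at sites raised in DMSO + IL-4 against DMSO 20.6% were lower and 15.5% higher.

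The median signals of the raised sites show where both treatments stood. They were 1.96 in Untreated, 2.45 in DMSO, 4.90 in IL-4, 5.37 in DMSO + IL-4, 7.74 in MCSF + IL-4 and 7.10 in LatA + IL-4. Both treated libraries were thus above the libraries with IL-4 alone at these sites, as they were at sites in general, and MCSF + IL-4 was the higher of the pair. The median log2 ratio of LatA + IL-4 over MCSF + IL-4 was −0.09 at raised sites, 0.27 at lowered sites and 0.12 at the other 29110 sites.

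The share of lower sites grew with the size of the IL-4 response. It was 5.92% at the 29904 sites raised less than 1.5-fold in 1 or both pairs and 18.4% at the 2016 sites raised 1.5 to 2-fold. It reached 26.2% at the 1289 sites raised 2 to 4-fold and 29.2% at the 267 sites raised 4-fold or more. The intervals of the last pair of classes overlapped. The share of higher sites was 12.5%, 15.3%, 13.0% and 12.4% in the same classes, so it did not fall steadily. The mean signal that chose the sites includes the treated libraries, so a weak raised site could pass through a high treated library. The part of this in the trend was not tested. The shares were also taken within classes of mean signal over all 6 libraries, which does not hold the level without IL-4 fixed. At a mean signal of 3.2 to 4.5, 25.4% of raised sites and 8.56% of sites neither raised nor lowered were lower in LatA + IL-4. At 4.5 to 6.4 the shares were 21.3% and 6.06%, at 6.4 to 12.8 they were 17.4% and 3.49%, and at 12.8 to 25 they were 18.1% and 2.97%. The shares higher at raised sites and at sites neither raised nor lowered were 15.6% and 15.6% at 3.2 to 4.5. At 4.5 to 6.4 they were 12.7% and 14.4%, and at 6.4 to 12.8 they were 12.0% and 8.85%. At 12.8 to 25, with 144 raised sites, they were 18.1% and 5.61%. No excess of lower over higher raised sites was seen there.

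**Figure D2:**
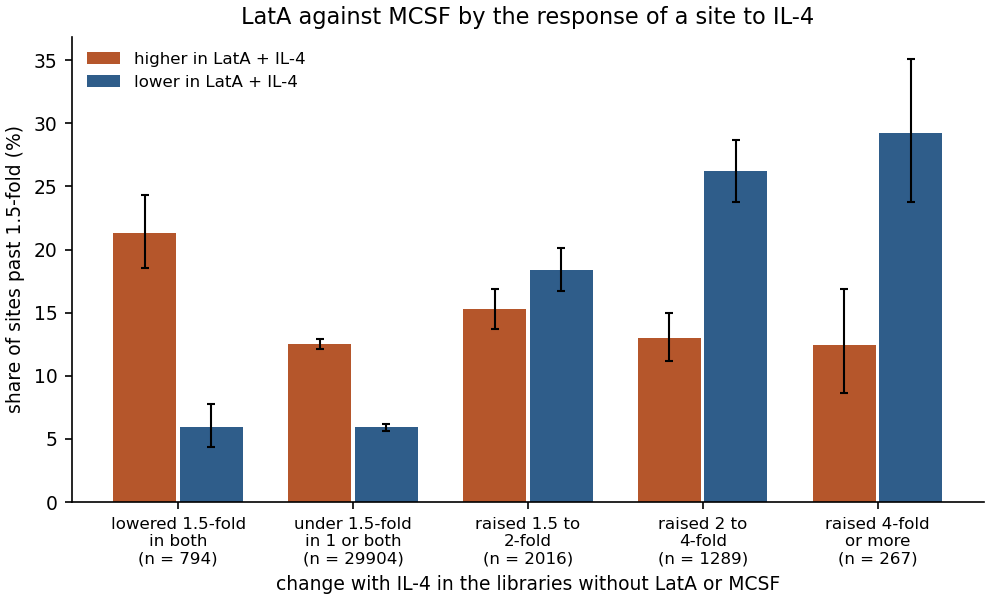
Share of sites at least 1.5-fold higher or lower in LatA + IL-4 than in MCSF + IL-4 (y axis, in percent), by the change of the site with IL-4 in both pairs of libraries without latrunculin A or MCSF (x axis). Bars start at 0 and lines are exact 95% intervals for counting error; the share of lower sites goes from 5.92% at sites under 1.5-fold to 29.2% at sites raised 4-fold or more, and at the 794 lowered sites 21.3% were higher.

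Counted from the other side, 786 of the 2555 sites higher in MCSF + IL-4 (30.8%, 29.0 to 32.6) were raised by IL-4. The share was 12.0% at sites higher in LatA + IL-4 and 8.54% at sites within 1.5-fold. Sites lowered by IL-4 made up 1.84%, 3.98% and 2.17% of the same classes. Most sites that differed between the treatments, in either direction, were thus not sites that IL-4 moved in both pairs. Across all 33476 sites the direct log2 ratio had a Pearson correlation of −0.13 with the IL-4 ratio and −0.17 with the ratio of DMSO + IL-4 to DMSO, both weak and given as descriptions.

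Single sites show the sizes involved. The strongest ratios among sites raised by IL-4 in both pairs, at most 1 per 100 kb and with a vehicle ratio within 1.5-fold, were chosen after their values were seen. Many of the single sites described here and further on reached the mean signal of 3.2 only through their highest library, and for them the standing of that library is no finding. The site at chr2:5239533-5240416 had a signal of 3.55 in Untreated, 3.03 in DMSO, 11.8 in IL-4, 14.6 in DMSO + IL-4, 20.6 in MCSF + IL-4 and 2.19 in LatA + IL-4. It was 9.41-fold higher in MCSF + IL-4 than in LatA + IL-4 (interval 6.51 to 14.0, 271 against 32 reads), and LatA + IL-4 lay below even the libraries without IL-4.

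At other raised sites LatA + IL-4 was near the level of the libraries with IL-4 alone and MCSF + IL-4 was far above it. At chr11:81860317-81861914 the signals were 0.719 in Untreated, 0.992 in DMSO, 3.12 in IL-4, 3.61 in DMSO + IL-4, 24.4 in MCSF + IL-4 and 3.14 in LatA + IL-4, a ratio of 7.78 for MCSF + IL-4 over LatA + IL-4 (5.70 to 10.8). At chr1:187087628-187088420 they were 1.01, 0.350, 3.94, 4.09, 26.8 and 3.69 in the same order, a ratio of 7.26 (5.44 to 9.86). In both cases LatA + IL-4 lay between IL-4 and DMSO + IL-4 or just below them. Both sites reached the mean signal of 3.2 only through MCSF + IL-4, so that its place above the other libraries was fixed by the choice of sites.

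Raised sites that went the other way had low values with MCSF. At chr5:105407984-105408666 the signals were 1.92 in Untreated, 1.98 in DMSO, 4.39 in IL-4, 3.77 in DMSO + IL-4, 2.35 in MCSF + IL-4 and 12.5 in LatA + IL-4, a ratio of 5.31 for LatA + IL-4 over MCSF + IL-4 (3.62 to 8.05). At chr11:43568875-43569609 they were 0.527, 0.408, 4.13, 5.05, 2.12 and 9.90 in the same order, a ratio of 4.66 (3.09 to 7.26). MCSF + IL-4 was below both libraries with IL-4 alone at these sites. Both reached the mean signal of 3.2 only through LatA + IL-4, so that its place above the others was fixed by the choice. At chr13:48370637-48371314 LatA + IL-4 had a signal of 3.83, near the 5.21 of IL-4, and MCSF + IL-4 had 0.607 from 8 reads.

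Among strongly accessible sites, of mean signal of at least 20 and again chosen after their values were seen, the ratios were smaller and better measured. At chr2:156991021-156992171 the signal was 17.1 in Untreated, 24.1 in DMSO, 25.9 in IL-4, 25.8 in DMSO + IL-4, 26.7 in MCSF + IL-4 and 92.4 in LatA + IL-4. LatA + IL-4 was 3.46-fold above MCSF + IL-4 (3.08 to 3.90, 1353 against 352 reads), and the other 5 libraries lay between 17.1 and 26.7. At chr10:86391513-86392096 LatA + IL-4 had 103 and MCSF + IL-4 had 33.3, while IL-4 and DMSO + IL-4 had 61.3 and 61.4, so the treatments lay on opposite sides of the controls. At chr12:118985530-118986421 LatA + IL-4 had 50.7, MCSF + IL-4 16.2, IL-4 23.1 and DMSO + IL-4 17.6. The chr12 site reached the mean signal of 20 only through LatA + IL-4, so that the place of that library above the others was fixed by the choice. At the chr2 and chr12 sites IL-4 over Untreated was just past 1.5-fold, with log2 ratios of 0.60 and 0.59, and the DMSO pair was not.

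The 3 strong sites taken as higher with MCSF also rose with IL-4. At chr5:17291651-17292981 the signal was 5.80 in Untreated, 8.69 in DMSO, 28.3 in IL-4, 28.0 in DMSO + IL-4, 89.9 in MCSF + IL-4 and 21.5 in LatA + IL-4, a ratio of 4.18 for MCSF + IL-4 over LatA + IL-4 (3.69 to 4.75). At chr11:54495959-54497032 they were 5.18, 8.11, 21.0, 26.3, 44.5 and 15.8 in the same order, a ratio of 2.81 (2.41 to 3.28). At both, MCSF + IL-4 was above the libraries with IL-4 alone and LatA + IL-4 below them. At chr14:73081811-73083136 MCSF + IL-4 had 85.8 against 32.0 in LatA + IL-4, 37.6 in IL-4 and 40.2 in DMSO + IL-4, and its rise with IL-4 passed 1.5-fold in 1 of the pairs.

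**Figure D3:**
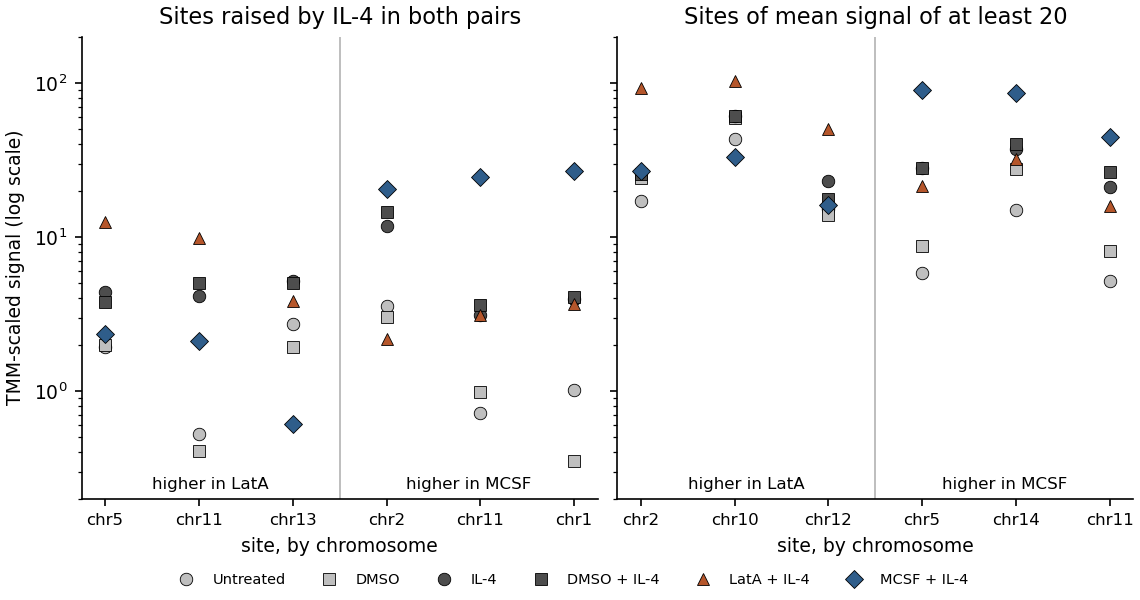
TMM-scaled signal (y axis, log scale) in each of the 6 libraries at 12 sites, named by chromosome (x axis), with 1 point per library and no replicates. The left panel holds sites raised by IL-4 in both pairs and the right panel sites of mean signal of at least 20; at 5 of the 6 sites on the left of each grey line LatA + IL-4 is the highest library, and at all 6 on the right of it MCSF + IL-4 is. Some of these sites passed the mean signal that chose them only through that highest library.

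Ranked over all sites by the interval bound nearest to 1, many of the largest ratios came from sites with few reads in 1 library. By that rule 8 sites were taken in each direction. Of those higher in LatA + IL-4, the site at chr16:65910086-65911289 had 15 reads in MCSF + IL-4 and 225 in LatA + IL-4, a ratio of 13.5 (8.01 to 24.5). Its signal was 1.14 in MCSF + IL-4 and 15.4 in LatA + IL-4, against 3.31 in Untreated, 6.88 in DMSO, 2.92 in IL-4 and 3.37 in DMSO + IL-4. At chr2:157940454-157942503 LatA + IL-4 had 227 reads and MCSF + IL-4 27, a ratio of 7.57 (5.07 to 11.7), with signals of 15.5 and 2.05 and the controls between 1.28 and 2.33. The last site reached the mean signal of 3.2 only through LatA + IL-4, so that its place above the other libraries was fixed by the choice. At the first, MCSF + IL-4 was the lowest library.

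The top site by this rule, chr1:184822937-184824839, had 1 read in MCSF + IL-4 and 104 in LatA + IL-4, a ratio of 93.6 with an interval of 16.4 to 3730. Its signal of 7.10 in LatA + IL-4 was nevertheless below the 11.1 of Untreated and the 8.11 of DMSO, and IL-4 and DMSO + IL-4 had 2.29 and 2.41. Of the 8 sites, MCSF + IL-4 was the lowest library of all 6 at 7, and 2 had at most 3 reads there. The 5 sites not described singly, on chr1, chr11, chr15 and chr18, had ratios from 6.61 to 35.1. None of the 8 sites was raised by IL-4 in both pairs and 1 was lowered. Of all 4249 sites higher in LatA + IL-4, 12.0% were raised in both pairs and 3.98% lowered.

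Of the 8 sites higher in MCSF + IL-4, 5 were raised by IL-4 in both pairs and 1 was lowered. Of all 2555 sites higher in MCSF + IL-4, 30.8% were raised and 1.84% lowered, against 10.7% and 2.37% of all 33476 sites. A count over 8 picked sites is a description only. The site at chr12:101703352-101703777 had 206 reads in MCSF + IL-4 and 5 in LatA + IL-4, a ratio of 45.8 (19.3 to 142). Its signals were 2.06 in Untreated, 0.933 in DMSO, 4.32 in IL-4, 5.69 in DMSO + IL-4, 15.6 in MCSF + IL-4 and 0.342 in LatA + IL-4. LatA + IL-4 was below and MCSF + IL-4 above every other library. The site at chr11:104529167-104529683 had 222 reads in MCSF + IL-4 and 7 in LatA + IL-4, a ratio of 35.2 (16.8 to 88.6), and DMSO, with 1 read, was the lowest library there.

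At chr10:18425563-18426021 and chr17:63399840-63400841 LatA + IL-4 had 11 reads each and MCSF + IL-4 132 and 126, ratios of 13.3 (7.21 to 27.4) and 12.7 (6.87 to 26.1). Both were raised by IL-4, to signals of 4.32 and 6.23, and LatA + IL-4 had 0.751 at both. At chr1:134245578-134246416 LatA + IL-4 had 0 reads and MCSF + IL-4 82, a ratio of 30.4 when the library at 0 is set to a floor of 3 reads, with an exact interval from 24.1 upwards. At chr19:7197857-7199343 there were 103 reads in MCSF + IL-4 and 1 in LatA + IL-4, a ratio of 114 (20.1 to 4560). The remaining pair had 1 read against 86 on chr14, a ratio of 95.5 (16.7 to 3820), and 0 against 38 on chr5, a ratio of 14.1 against the same floor with an interval from 10.9 upwards. Of the 8 sites, 4 had at most 3 reads in LatA + IL-4.

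Sites nearly empty in 1 library were about as frequent in the controls. Sites with at most 3 reads in 1 library and at least 15 in each of the other 5 numbered 6 in MCSF + IL-4 and 4 in LatA + IL-4. The 4 controls had between 5 and 7 each. These counts are too small to rank the libraries.

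Sites close to each other tended to differ the same way. The log2 ratio of a site and that of its neighbour had a Pearson correlation of 0.20 over 2027 pairs less than 1 kb apart and of 0.18 over 4269 pairs 1 to 5 kb apart. It was 0.11 at 5 to 20 kb, 0.03 at 20 to 100 kb and 0.01 beyond. The vehicle ratios of the same pairs gave 0.01, 0.06, 0.04, 0.03 and 0.02. Where both sites of a pair 1 to 5 kb apart passed 1.5-fold between LatA + IL-4 and MCSF + IL-4, they went the same way in 163 of 210 pairs (77.6%). The vehicle gave 18 of 30 such pairs (60.0%), which are few. Under 1 kb the shares for the treatments and the vehicle were 66.7% and 55.6%, and at 5 to 20 kb 70.2% and 64.6%. At 20 to 100 kb they were 59.4% and 60.5%, and beyond 100 kb 51.5% and 47.9%. Sites of mean signal of at least 6.4 gave 0.30 at 1 to 5 kb, against 0.08 for the vehicle. These are weak correlations across sites, and neighbours share libraries and base composition.

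**Figure D4:**
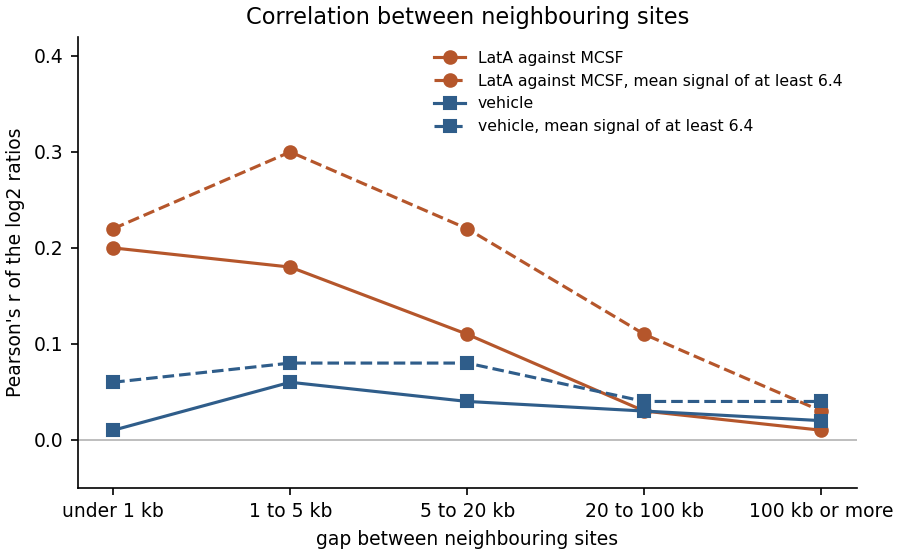
Pearson correlation (y axis) of the log2 ratios of neighbouring sites, by the gap between them (x axis), for LatA + IL-4 against MCSF + IL-4 and for the vehicle difference, over all 33476 sites and over those of mean signal of at least 6.4. The correlation for LatA against MCSF is 0.20 under 1 kb and 0.01 from 100 kb on; that of the vehicle stays at or under 0.08 throughout.

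Over longer stretches the differences were small, with a few exceptions. The median log2 ratio over 1054 windows of 200 kb with at least 8 sites had an SD of 0.20, against 0.12 for the vehicle. In LatA + IL-4 13 windows were past 1.5-fold higher and 5 lower in the median of their sites, and the vehicle had 0 of each. With the vehicle ratio subtracted, 15 windows were past 1.5-fold higher and 10 lower. After subtraction of the vehicle ratio the highest windows were chr17:6600001-6800000, chr11:82800001-83000000 and chr17:7600001-7800000. The chr17 windows had direct medians of 0.44 and 0.53, under 1.5-fold, and vehicle medians of −0.24 and −0.13. By the direct ratio alone the highest were chr19:34600001-34800000 (1.00), chr5:11000001-11200000 (0.88) and chr19:11400001-11600000 (0.85). The lowest after subtraction were chr5:17200001-17400000, chr12:55800001-56000000 and chr16:44800001-45000000. The first and second of these had direct medians of −0.34, also under 1.5-fold.

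In chr11:82800001-83000000, 7 of 12 sites were higher in LatA + IL-4 and none lower, with a median direct log2 ratio of 0.84 and a vehicle median of 0.00. Its median signals were 2.49 in Untreated, 3.76 in DMSO, 3.18 in IL-4, 3.21 in DMSO + IL-4, 3.64 in MCSF + IL-4 and 5.81 in LatA + IL-4. LatA + IL-4 was above the controls here, as it was over all sites, and MCSF + IL-4, which was above them over all sites, was near them. In this window 5 of 12 sites had read counts within 15% of those of another in all 6 libraries. In chr16:44800001-45000000, 5 of 9 sites were lower and none higher, with a median of −0.87 and a vehicle median of 0.15. The window chr5:17200001-17400000, which holds the strong site at 17291651 described above, had 2 of 9 sites lower and 8 of 9 below 0.

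The window with the most sites lower in LatA + IL-4, picked out after the values were seen, was chr13:23600001-23800000. It held 23 sites, of which 12 were lower and 2 higher, with a median of −0.63 and a vehicle median of 0.15. All 13 of its sites of mean signal of at least 20 had negative log2 ratios, from −0.84 to −0.46, and 10 of them passed 1.5-fold. Of the 1031 sites of the same signal range anywhere, 4.95% were lower. The median signal of these 13 sites was 20.0 in Untreated, 25.2 in DMSO, 18.8 in IL-4, 20.6 in DMSO + IL-4, 41.0 in MCSF + IL-4 and 24.4 in LatA + IL-4. MCSF + IL-4 was the highest library at each of the 13 sites, and the medians of the other 5 libraries lay between 18.8 and 25.2. Some of the 13 sites reached the mean signal of 20 only through MCSF + IL-4, so that its place was fixed there by the choice.

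Strong sites nearby were also lower in LatA + IL-4. In chr13:21800001-22000000, 8 of 17 sites were lower, with a median of −0.58, and MCSF + IL-4 was the highest library at 12 of its 13 strong sites. In chr13:23800001-24000000, 5 of 12 were lower, with a median of −0.47. The windows between, chr13:22000001-22200000 and chr13:23400001-23600000, had medians of 0.00 and 0.18. The first of these nevertheless held 3 sites of mean signal of at least 20, with log2 ratios of −0.51, −0.68 and −0.52, and the second held no site of that level. Over the 4 Mb of chr13:21000001-25000000, 34 of the 35 sites of mean signal of at least 20 had negative log2 ratios. Of these 34, 22 were at least 1.5-fold lower. The remaining site, with a log2 ratio of 0.73, was past 1.5-fold higher. All 35 were within 1.5-fold in the vehicle comparison. Some of the 35 sites reached the mean signal of 20 only through MCSF + IL-4. In the window with the most lower sites, 13 of 23 sites had read counts within 15% of those of another of its sites in all 6 libraries, and in chr13:21800001-22000000 12 of 17 had. The alignment could report a read at up to 10 places, so such sites may share reads and are not independent; whether they do was not tested.

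**Figure D5:**
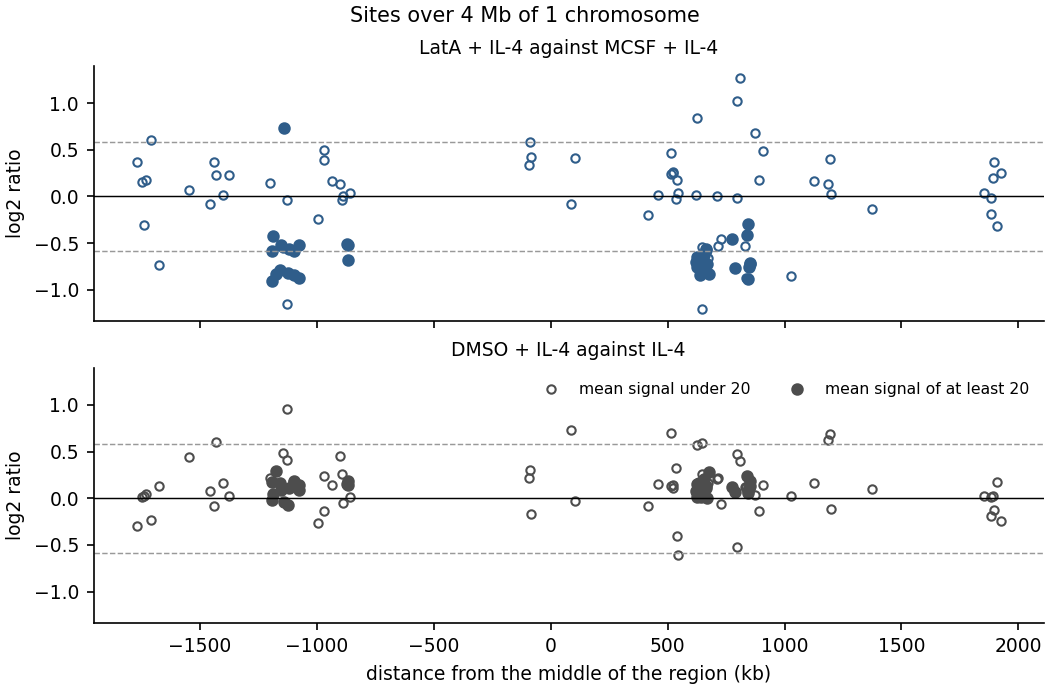
Log2 ratio (y axis) of each of the 102 sites of a 4 Mb region of chromosome 13 against its distance from the middle of the region in kb (x axis), with LatA + IL-4 over MCSF + IL-4 in the upper panel and the vehicle difference in the lower. Filled points are the 35 sites of mean signal of at least 20 and dashed lines mark 1.5-fold; in the upper panel 34 of the 35 filled points lie under 0, in separate groups, and in the lower panel all 35 lie within 1.5-fold.

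In the other direction, 1 of 437 blocks of 5 Mb stood apart. In chr5:10000001-15000000, 36 of 65 sites (55.4%) were higher in LatA + IL-4 and 3 were lower. Its median log2 ratio was 0.70, the next block had 0.34, and its vehicle median was 0.08. The median signals were 4.50 in Untreated, 4.67 in DMSO, 5.79 in IL-4, 6.17 in DMSO + IL-4, 4.48 in MCSF + IL-4 and 7.99 in LatA + IL-4, so that MCSF + IL-4 was below both libraries with IL-4 alone and level with those without IL-4. In this block 27 of 65 sites had read counts within 15% of those of another site of the block in all 6 libraries, a share exceeded in some other blocks (median 12.5%, maximum 67.9%), and sharing of reads among them was not tested. By chromosome, the share of higher sites ran from 10.8% on chromosome 10 to 16.9% on chromosome 17.

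At the strongest sites of all, latrunculin A and MCSF differed little. The 48 sites of mean signal of at least 1000 had log2 ratios from −0.26 to 0.02, with a median of −0.18, and vehicle ratios from −0.09 to 0.18. They held 38.5% of the reads in the 33476 sites in MCSF + IL-4 and 34.2% in LatA + IL-4, against 49.4 to 55.6% in the other 4 libraries. The 5 strongest, on chr2 and chr9, had ratios of LatA + IL-4 to MCSF + IL-4 from 0.852 to 0.875. Both treated libraries thus had a smaller part of their reads in these few sites than any control, and the signal at the other sites stands against that.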

How the data were processed

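ATAC-seq was performed on 6 BMDM libraries, 1 per group, and groups were taken from the labels. The authors trimmed reads with Cutadapt, aligned them to mm9 with Bowtie2 (up to 10 alignments per read), removed duplicates with Picard and discarded blacklisted and mitochondrial reads. They called peaks with macs2 (q of 0.05) on read ends shifted and extended about the transposase cut and counted reads per site with featureCounts. Tool versions are not given in the sources used here. The deposited site table holds a signal, CPM that the authors scaled with edgeR's TMM factors. Dividing by the signal of 1 read gave whole reads for 100% of values (tolerance 0.001 reads); with 1 library per group no count test was run. The deposited peak lists, 1 per library, give a fold enrichment (a ratio), a −log10 p and q, and a score. The −log10 q of the deposited lists was used as an alternative threshold, and the authors' ratio and score columns were not used.

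Log2 ratios were taken on the signal scale with 1 read, at the geometric mean library size, added to each library, which understates ratios of weak sites. Calls were made at 1.5-fold. Ratios at single sites have exact (Clopper-Pearson, conditional on the sum of reads) 95% intervals from reads divided by effective library sizes, and shares have exact binomial ones. Named sites were the 8 in each direction whose interval bound nearest to 1 was farthest from it, with the vehicle within 1.5-fold, at least 20 reads in the higher library, a width of at most 5000 bp and 1 site per 100 kb. Named windows were the 3 highest and 3 lowest of 200 kb by median subtracted log2 ratio with at least 8 sites, and the 5 strongest sites were also named. All members, classes and rules were chosen with earlier results of these data known. Coordinates count from 1. Gene lists, cell type markers and sequences are not analysed here, since the reference at hand is not mm9; the labelled cell type could therefore not be checked. Python 3.11.15, numpy 2.4.6, scipy 1.17.1, bedtools 2.31.1 and, for size factors as an alternative scaling, DESeq2 1.42.0 were used, and the calls were tested on simulated data. Scaling, added reads, filters, threshold, a trend removed by running median over 2001 sites and the peak overlap were varied.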

Additional observations from a re-analysis of the deposited data

How the results depend on the processing

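No paired analysis was possible because each group has 1 library. Of the 96 values at the 16 named sites under other scalings, 5 added reads, trend removal and vehicle subtraction, 96 kept their direction and lay past 1.5-fold. The 16 sites were chosen for large ratios and for a vehicle ratio within 1.5-fold. This outcome was therefore largely fixed by the choice and is no test of the other sites. Scaling by total reads or by DESeq2 size factors moved the median log2 ratio by 0.01 or less, and by total reads in sites of mean signal under 50 by −0.04; the median ran from 0.07 to 0.12. Setting that median to 0 (added after seeing the data) gave 1183 higher and 1674 lower vehicle sites, and trend removal 3120 higher and 3411 lower in LatA + IL-4 (47.8% higher) with 1256 higher and 1602 lower for the vehicle (43.9% higher).

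Counts moved most with the filter and the threshold. No filter gave 130545 sites higher and 134353 lower in LatA + IL-4, 121606 and 120391 for the vehicle, and 162114 and 164296 after subtraction. A mean signal of 6.4 gave 1064 and 575, 412 and 192, and 991 and 1091. A 2-fold threshold gave 1259 and 824, 408 and 377, and 1593 and 1539, which leaves 52.0% of vehicle calls higher.

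The share of IL-4-raised sites lower in LatA + IL-4, with the share higher, was 25% and 13.1% with total reads in weaker sites as the scale, 28.0% and 11.2% with the median set to 0, and 27.6% and 11.2% with the trend removed. It was 31.9% and 25.4% without a filter, 8.57% and 5.07% at 2-fold, and 17.4% lower at a mean signal of 6.4. Sites raised in IL-4 against Untreated alone had 16.0% and 16.0%, and in DMSO + IL-4 against DMSO alone 20.6% and 15.5%. All settings of these shares were added after seeing the data. The correlation of neighbours 1 to 5 kb apart was 0.30 at a mean signal of 6.4, and 49.3% of LatA + IL-4 and 47.9% of MCSF + IL-4 peaks were shared at a 50% overlap (vehicle pair, 44.2% of DMSO + IL-4 and 43.2% of IL-4), and 60.8% and 64.2% at a −log10 q of 5 (vehicle pair, 60.8% and 54.5%). The cause of these shifts was not tested. Depth limits weak sites most, and no replicate bounds any value.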

Other observations

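Chromosome X, left out of the counts, had 1865 sites past the same level. In LatA + IL-4 8.47% of these (7.25 to 9.83) were higher than in MCSF + IL-4 and 7.99% (6.80 to 9.31) were lower, with a median log2 ratio of −0.01 and a vehicle median of 0.01.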
